A study of Mus musculus with 6 samples.

Results

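The trophectoderm transcription factors followed here were 10 mouse genes taken by name, namely Cdx2, Eomes, Elf5, Gata2, Gata3, Tfap2a, Tfap2c, Tead4, Hand1 and Esx1. Their RefSeq transcripts were matched by 12 array probes, and 9 of the 10 genes had a probe that entered the test, among 14595 genes tested in all. Expression was measured on 6 one-colour Agilent arrays in stable lines of ZHBTc4, a mouse embryonic stem cell line that lacks its own functional Pou5f1 alleles and lives on an Oct4 transgene that tetracycline shuts off. Every line was made by electroporating a pCAG-IP plasmid, whose CAG promoter is broadly active, and plating the cells in 2 µg/mL of tetracycline. Transfected cells were selected with 1 µg/mL of puromycin from day 2, and colonies were picked on day 9 and expanded in serum and LIF, the cytokine that holds mouse embryonic stem cells undifferentiated. The plasmid carried coelacanth POU5F3 in LcPOU5F3 clones 1 and 2, coelacanth POU5F1 in LcPOU5F1 clones 4 and 5, and mouse OCT4 in mOct4 clones 1 and 2. All groups therefore shared the tetracycline, the puromycin and the promoter, each line is 1 clone with 1 array, and the labels do not say whether clones of a protein came from separate electroporations.

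The trophectoderm is the outer epithelium of the blastocyst and the source of the trophoblast of the placenta. In its nuclei TEAD4, helped by the cofactors YAP1 and WWTR1, acts upstream of Cdx2 and Gata3, and the GATA and AP-2 factors, Eomes and Elf5 then hold the trophoblast stem cell state, from which Hand1 and Esx1 mark later placental lineages. OCT4 and CDX2 are known to oppose each other, and loss of OCT4 from ZHBTc4 cells is a classical way to turn embryonic stem cells into trophoblast-like cells.

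Signals are given as log2 of the processed spot intensity relative to the 75th percentile of the same array, so 0 is that percentile itself and each unit is a doubling. A probe was measured on an array where the scanner software flagged it as well above background, which held for 43.5% to 57.8% of all probes. The floor, the lowest signal so flagged, lay between -3.93 and -2.44. A gene was called where limma's adjusted p (Benjamini-Hochberg over all genes tested) was under 0.05, and a difference is given with its standard error from that fit. The mouse Pou5f1 probe was measured in both mOct4 clones and in none of the coelacanth clones. RNA of all cells of a line was hybridised together, so fewer cells expressing a gene and less RNA per cell cannot be told apart.

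The promoter windows of 3 of these genes are shown because these genes were called higher in LcPOU5F3 in both comparisons below and their windows hold matches to motifs of factors in this network. They run from 250 bases before to 50 after the transcription start in RefSeq's GRCm38.p6 annotation, printed on the gene's strand. Capitals mark matches to the octamer ATGCAAAT, a POU-factor motif, to the AP-2 motif GCCNNNGGC, or to the TEAD motif GGAATG, read on either strand.
Cdx2, chr5:147307200-147307499, minus strand: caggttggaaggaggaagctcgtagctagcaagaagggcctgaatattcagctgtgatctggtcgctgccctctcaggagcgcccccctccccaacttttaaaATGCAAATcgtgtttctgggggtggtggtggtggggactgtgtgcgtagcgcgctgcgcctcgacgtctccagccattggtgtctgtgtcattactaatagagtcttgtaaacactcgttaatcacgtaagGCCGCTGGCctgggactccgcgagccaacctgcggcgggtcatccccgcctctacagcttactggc
Gata3, chr2:9878551-9878850, minus strand: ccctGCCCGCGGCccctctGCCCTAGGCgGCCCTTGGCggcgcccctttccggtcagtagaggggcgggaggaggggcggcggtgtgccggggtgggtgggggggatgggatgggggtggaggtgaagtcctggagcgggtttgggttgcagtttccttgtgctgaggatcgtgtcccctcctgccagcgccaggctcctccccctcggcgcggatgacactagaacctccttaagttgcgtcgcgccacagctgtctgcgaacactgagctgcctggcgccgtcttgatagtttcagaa
Gata2, chr6:88198414-88198713, plus strand: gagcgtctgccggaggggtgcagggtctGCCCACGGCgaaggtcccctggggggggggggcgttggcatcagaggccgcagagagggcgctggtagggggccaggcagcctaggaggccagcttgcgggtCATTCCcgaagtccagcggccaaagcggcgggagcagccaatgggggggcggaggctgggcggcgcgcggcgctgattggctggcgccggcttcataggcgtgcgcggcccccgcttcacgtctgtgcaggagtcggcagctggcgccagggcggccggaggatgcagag
The Cdx2 window held the octamer, starting at position -147 from the start site, and 1 AP-2 match at -16. The Gata3 window held 3 AP-2 matches close together, with no other motif searched. This Gata2 window held 1 AP-2 match at -222 and, on the other strand, 1 TEAD match at -120. The other Gata2 window held no match, nor did any window of Tfap2a or Esx1, which were also called higher in both comparisons. The windows shown for Cdx2, Gata3 and Gata2 hold 57.3%, 67.3% and 73.7% of G and C. The median over all windows is 52.7%, and the AP-2 motif is itself made of G and C at its fixed positions. Windows were found for 7 of the 10 genes, 10 windows in all, and Tfap2c, Tead4 and Hand1 had none in the table. The octamer was in 1 of these 10 windows and in 1.74% of all 32851 windows of the annotation, the TEAD motif in 2 and in 14.7%, and the AP-2 motif in 3 and in 16.6%. The GATA motif AGATAA and the CDX motif TTTATNG were in none of the 10, against 11.2% and 10.9% of all windows. These matches describe letters in short windows, and nothing about binding was measured.

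Set side by side, 6 of the 9 tested genes (Cdx2, Gata2, Gata3, Tfap2a, Tead4 and Esx1) had both LcPOU5F3 clones above all other clones. Eomes had both mOct4 clones on top, no gene had both LcPOU5F1 clones on top, and Tfap2c and Hand1 had no group that stood above the rest. The share of all genes with a group on top was not counted, so these counts are a description. Between pairs of groups, clones did not overlap for 68.4% of all genes in LcPOU5F3 and mOct4. That share was 65.4% in LcPOU5F3 and LcPOU5F1, and 60.6% in LcPOU5F1 and mOct4. All 9 were well above background on both LcPOU5F3 arrays and both mOct4 arrays, and 5 on both LcPOU5F1 arrays. The arrays differed in detection, with 43.5% and 53.3% of all probes well above background in LcPOU5F3, 48.1% and 43.7% in LcPOU5F1, and 57.5% and 57.8% in mOct4. The floors were -2.46 and -3.93 in LcPOU5F3, -3.04 and -2.44 in LcPOU5F1, and -3.81 and -3.66 in mOct4. A signal flagged on 1 array can therefore lie below the floor of another, and these counts are not a comparison of levels. Paired clones differed by a median of 0.66 over these genes in LcPOU5F3, 0.93 in LcPOU5F1 and 0.12 in mOct4, where the medians over all genes were 0.33, 0.21 and 0.15.

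**Figure D1:**
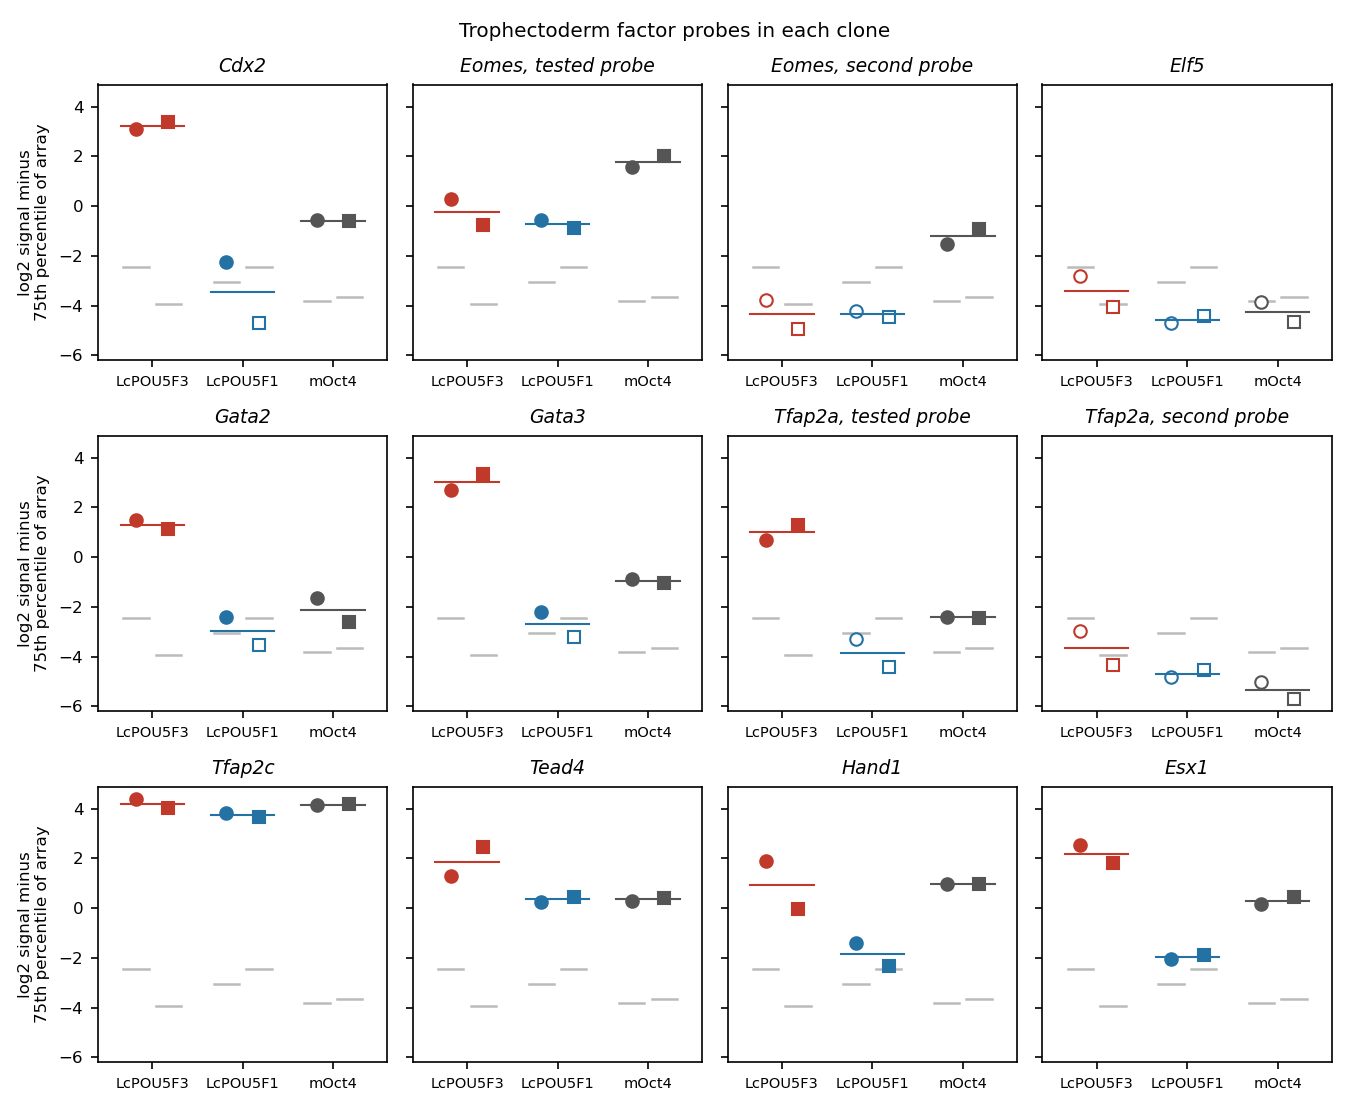
Signal of each of the 12 probes in every clone, as log2 relative to the array's 75th percentile, with 1 panel per probe and the groups LcPOU5F3, LcPOU5F1 and mOct4 from left to right. Circles are the lower and squares the higher clone number, filled where the probe was well above background and open where it was not, coloured lines are group means and grey dashes are the array's floor. Cdx2, Gata2, Gata3, Tfap2a, Tead4 and Esx1 stand highest in both LcPOU5F3 clones, while Eomes stands highest in both mOct4 clones.

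Tead4, the TEA-domain factor at the head of the pathway, had signals of 1.30 and 2.44 in the LcPOU5F3 clones, 0.26 and 0.43 in the LcPOU5F1 clones, and 0.28 and 0.41 in the mOct4 clones. Both LcPOU5F3 clones were above all others, and the 4 other clones lay between 0.26 and 0.43. Tead4 rose 2.87-fold in LcPOU5F3 over mOct4 (1.52 ± 0.38, limma adjusted p = 0.045) and 2.87-fold over LcPOU5F1 (1.52 ± 0.38, adjusted p = 0.049). Both calls lie close to the threshold and were lost, among other settings, with only the 4 arrays compared and with no filter on dim probes.

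Cdx2, the caudal-type homeobox factor that defines the trophectoderm, had signals of 3.09 and 3.38 in the LcPOU5F3 clones, -2.26 and -4.69 in the LcPOU5F1 clones, and -0.55 and -0.62 in the mOct4 clones. As processed intensity these are 4038 and 4409 in LcPOU5F3, 77.7 and 12.7 in LcPOU5F1, and 233 and 196 in mOct4. The 3 groups did not overlap, and the 12.7 of LcPOU5F1 clone 5 was not well above background. Cdx2 rose 14.1-fold in LcPOU5F3 over mOct4 (3.82 ± 0.77, adjusted p = 0.027) and 105-fold over LcPOU5F1 (6.71 ± 0.77, adjusted p = 0.0098). The size of the difference from LcPOU5F1 rests on its clones, being 7.92 without clone 4, 5.49 without clone 5, and 5.59 with dim signals set to a common floor. The LcPOU5F1 clones stood below mOct4 by a log2 difference of -2.89, which was not called (adjusted p = 0.23).

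Gata3, a zinc-finger factor that acts beside Cdx2 in the trophectoderm, had signals of 2.68 and 3.33 in the LcPOU5F3 clones, -2.20 and -3.20 in the LcPOU5F1 clones, and -0.89 and -1.02 in the mOct4 clones. Its groups stood in the same order as those of Cdx2 with no overlap, and LcPOU5F1 clone 5 was again not well above background. Gata3 rose 15.6-fold in LcPOU5F3 over mOct4 (3.96 ± 0.40, adjusted p = 0.0071) and 52.1-fold over LcPOU5F1 (5.70 ± 0.40, adjusted p = 0.0046). Gata2, its paralogue in trophoblast giant cells, had 1.47 and 1.11 in the LcPOU5F3 clones, -2.41 and -3.52 in the LcPOU5F1 clones, and -1.65 and -2.61 in the mOct4 clones. The coelacanth POU5F1 and mouse OCT4 clones overlapped for Gata2, so only LcPOU5F3 stood apart, and LcPOU5F1 clone 5 was not well above background. Gata2 rose 10.7-fold in LcPOU5F3 over mOct4 (3.42 ± 0.49, adjusted p = 0.014) and 19.1-fold over LcPOU5F1 (4.26 ± 0.49, adjusted p = 0.0098). The difference from LcPOU5F1 was 3.72 with dim signals set to a common floor.

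Of the AP-2 factors, Tfap2a had signals of 0.68 and 1.30 in the LcPOU5F3 clones, -3.30 and -4.41 in the LcPOU5F1 clones, and -2.40 and -2.45 in the mOct4 clones. The probe was well above background on no LcPOU5F1 array, so that group has only a bound. Tfap2a rose 10.7-fold in LcPOU5F3 over mOct4 (3.41 ± 0.42, adjusted p = 0.010) and at least 13.3-fold over LcPOU5F1 (adjusted p = 0.0064). A second Tfap2a probe, annotated to another transcript, was well above background on no array. Tfap2c, which is active in trophoblast and also in germ cells, behaved differently from its paralogue: it had 4.38 and 4.02 in the LcPOU5F3 clones, 3.82 and 3.66 in the LcPOU5F1 clones, and 4.13 and 4.17 in the mOct4 clones. All 6 arrays measured it brightly, and the LcPOU5F3 and mOct4 clones overlapped. Its difference between LcPOU5F3 and mOct4 was 0.05 ± 0.18 with a 95% interval of -0.41 to 0.51 (adjusted p = 0.87), and that between LcPOU5F3 and LcPOU5F1 was 0.46 ± 0.18 (adjusted p = 0.13).

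Eomes, a T-box factor of trophoblast stem cells that is also used in mesoderm and endoderm, had signals of 0.27 and -0.75 in the LcPOU5F3 clones, -0.54 and -0.89 in the LcPOU5F1 clones, and 1.56 and 2.01 in the mOct4 clones. It was highest in both mOct4 clones, and the coelacanth groups overlapped. Eomes fell 4.07-fold in LcPOU5F3 relative to mOct4 (-2.02 ± 0.39, adjusted p = 0.024), and was 5.67-fold lower in LcPOU5F1, which was not called (adjusted p = 0.12). A second Eomes probe was well above background on the mOct4 arrays alone, at -1.52 and -0.92, and was at least 3.92-fold lower in LcPOU5F3 and at least 2.87-fold lower in LcPOU5F1. Elf5, an Ets factor that with Cdx2 and Eomes sustains trophoblast stem cells, had no array with its probe well above background. Its signals were -2.81 and -4.05 in LcPOU5F3, -4.70 and -4.44 in LcPOU5F1, and -3.85 and -4.67 in mOct4, so no difference could be measured.

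Hand1, a basic helix-loop-helix factor of trophoblast giant cells, had signals of 1.91 and -0.04 in the LcPOU5F3 clones, -1.39 and -2.32 in the LcPOU5F1 clones, and 0.95 and 0.96 in the mOct4 clones. The LcPOU5F3 clones lay on either side of the mOct4 clones and 1.95 apart, so no direction was set there: the difference was -0.02 ± 0.69, with -0.998 without LcPOU5F3 clone 1 and 0.95 without clone 2. Hand1 rose 6.91-fold in LcPOU5F3 over LcPOU5F1 (2.79 ± 0.69, adjusted p = 0.047), a call lost with only the 4 arrays compared and with no filter on dim probes. The difference was 1.81 without LcPOU5F3 clone 1. Esx1, an X-linked homeobox gene of the placenta, had 2.52 and 1.81 in the LcPOU5F3 clones, -2.04 and -1.88 in the LcPOU5F1 clones, and 0.15 and 0.43 in the mOct4 clones. It was measured on all 6 arrays, in 3 groups without overlap. Esx1 rose 3.67-fold in LcPOU5F3 over mOct4 (1.87 ± 0.27, adjusted p = 0.014) and 17.4-fold over LcPOU5F1 (4.12 ± 0.27, adjusted p = 0.0044).

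Counted together, 7 of the 9 tested genes were called between LcPOU5F3 and mOct4, 6 higher and Eomes lower, where 23.6% of all genes were called, 11.8% higher and 11.8% lower. The median difference was 1.87 over the 9 genes and -0.09 over all genes. Clones did not overlap for 7 of the 9, against 68.4% of all genes. These calls need both mOct4 clones: without either one no member was called, although the differences kept their direction, with Gata3 at 4.03 (adjusted p = 0.077) without mOct4 clone 1 and 3.90 (adjusted p = 0.083) without clone 2. Cdx2 was also not called without LcPOU5F3 clone 2, nor were Eomes and Tead4 with only the 4 arrays compared, a fit that leaving out either LcPOU5F1 clone repeats because a lone clone adds no spread. Slide 1 held 5 arrays and slide 2 only mOct4 clone 2, so a fit with the slide as a block equals leaving that clone out.

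Between LcPOU5F3 and LcPOU5F1, 7 of the 9 genes were called, all higher, where 20.5% of all genes were called, 9.98% higher and 10.5% lower. The median difference was 4.12 over the 9 genes and -0.21 over all genes, and clones did not overlap for 8 of the 9, against 65.4%. Cdx2, Gata2, Gata3, Tfap2a and Esx1 were called in each alternative that tested them, while Eomes and Tfap2c were called in none. Tead4 and Hand1 were not called without either LcPOU5F1 clone, nor with only the 4 arrays compared, the fit that leaving out either mOct4 clone repeats. Background correction by normexp gave smaller differences, with 4.80 for Cdx2, 4.36 for Gata3, 2.78 for Gata2, 2.83 for Tfap2a, 3.24 for Esx1 and 2.02 for Hand1. Against mOct4 it gave 2.57 for both Gata2 and Tfap2a.

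Between LcPOU5F1 and mOct4, none of the 9 genes was called by limma, where 0.0343% of all genes were and 0.0206% were lower. At an unadjusted p under 0.05 there were 6 of the 9, against 15.5% of all genes, and 8 of the 9 differences were negative. The differences were -2.89 for Cdx2, -2.81 for Hand1 (adjusted p = 0.20), -2.50 for Eomes and -2.25 for Esx1 (adjusted p = 0.10). That of Cdx2 rests on LcPOU5F1 clone 5, which was not well above background: it was -1.67 without that clone, -1.76 with the common floor and -1.27 with normexp. Hand1 then stood at -2.35, -2.81 and -1.96 in those settings. Tead4 stood at 0.00 with a 95% interval of -0.98 to 0.98. The clones did not overlap for 7 of the 9 genes, against 60.6% of all genes, and the median difference was -1.74, against 0.10 over all genes. That median was -0.75 with normexp and -1.36 with the common floor, but -1.97 with quantile normalization and -2.11 with centring on the median. Gata2 and Gata3 were also not well above background in LcPOU5F1 clone 5, nor was Tfap2a in either LcPOU5F1 clone. The Tfap2a difference of -1.43 was -0.02 with the common floor. With only the 4 arrays compared, Eomes (adjusted p = 0.026), Hand1 (adjusted p = 0.034) and Esx1 (adjusted p = 0.020) were called lower, in a fit that called 3.68% of all genes. Leaving out either LcPOU5F3 clone repeats that fit. The comparisons share the mOct4 or a coelacanth group with each other, so their counts are not independent.

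**Figure D2:**
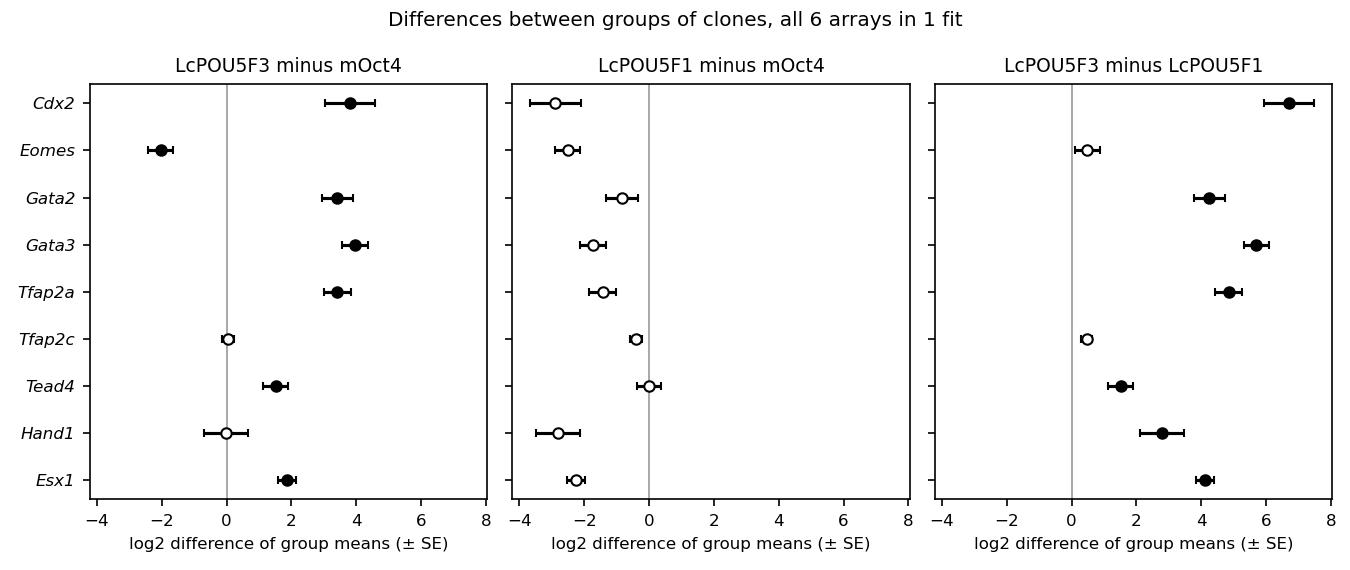
Log2 difference of each tested gene with its standard error in LcPOU5F3 minus mOct4, LcPOU5F1 minus mOct4 and LcPOU5F3 minus LcPOU5F1, filled where limma's adjusted p was under 0.05. In LcPOU5F3 minus mOct4, 6 genes are called above 0 and Eomes below it, and none is called in LcPOU5F1 minus mOct4.

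**Figure D3:**
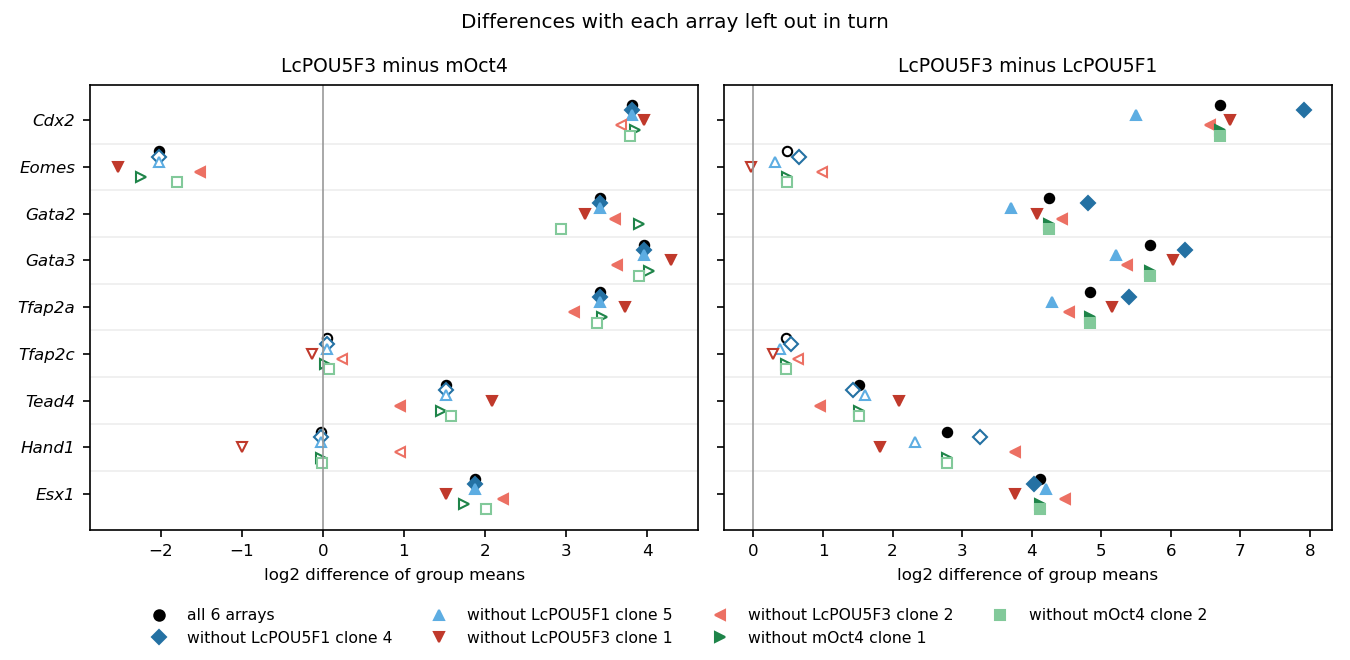
Log2 difference of each tested gene with all 6 arrays and with each array left out in turn, for LcPOU5F3 minus mOct4 and LcPOU5F3 minus LcPOU5F1, filled where the adjusted p was under 0.05. In LcPOU5F3 minus mOct4 all points become open without either mOct4 clone, and Hand1 changes sign between the LcPOU5F3 clones.

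Other genes of the trophoblast were counted beside these factors. Of 26 tested, 9 were called higher in LcPOU5F3 than in mOct4 and 1 lower, and 13 higher than in LcPOU5F1 and 1 lower. Between LcPOU5F1 and mOct4 no gene of the list was called. Over all genes 11.8% were called higher and 11.8% lower in LcPOU5F3 than in mOct4. Against LcPOU5F1 these shares were 9.98% and 10.5%, and between LcPOU5F1 and mOct4 0.0343% were called. Examples are the simple-epithelial keratins Krt7 (6.10), Krt8 (5.82) and Krt18 (5.45) and the homeobox gene Msx2 (3.26), as log2 differences of LcPOU5F3 minus mOct4. Krt7 lay at -3.54 and -3.76 in the mOct4 clones, with only 1 of these arrays well above background. The size of its difference therefore uses a signal at background. The 1 that fell was Sox15 (-1.48), a Sox factor of trophoblast giant cells, and the 1 lower than in LcPOU5F1 was the cadherin gene Cdh3 (-1.10). Tpbpa, of spongiotrophoblast, and Ctsq, of sinusoidal giant cells, were not well above background on both arrays of any group. The list's summed level was 816 and 797 in the LcPOU5F3 clones, 122 and 163 in the LcPOU5F1 clones, and 143 and 147 in the mOct4 clones, in units of the array's 75th percentile. Krt18 alone gave 45.9% and 48.1% of the LcPOU5F3 sums, and without it the sums were 441 and 414 in LcPOU5F3, 109 and 156 in LcPOU5F1, and 134 and 138 in mOct4.

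Among 18 tested cofactors of TEAD proteins and regulators of Hippo and Notch signalling, 9 were called higher in LcPOU5F3 than in mOct4 and 1 lower, and 8 were called higher than in LcPOU5F1 and 1 lower. None was called between LcPOU5F1 and mOct4. The shares of all genes called were those given above for the trophoblast list. In LcPOU5F3 minus mOct4 the known YAP targets Ccn1 (3.90) and Ccn2 (4.14) rose, as did Amot (4.72), which tethers YAP at junctions, and Mob1b (1.43), an activator of the LATS kinases. Wwtr1, the TEAD cofactor, rose as well (2.55), while its paralogue Yap1 had a difference of 0.09 (adjusted p = 0.68). The gene that fell was Rbpj (-0.93), the nuclear effector of Notch, and the 1 lower than in LcPOU5F1 was the receptor gene Notch1 (-0.83). Of 13 tested paralogues of the members, 3 were called higher, Tead3 (2.51), Tfap2e (1.81) and Elf1 (2.11), and Gata1 was called lower (-3.74). The share of all genes was 11.8% higher and 11.8% lower, and these few paralogues were not tested against it. Gata1 lay at -1.92 and -4.12 in the LcPOU5F3 clones, with only 1 of these arrays well above background. The size of its fall therefore uses a signal at background. A second Elf1 probe gave 0.57.

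**Figure D4:**
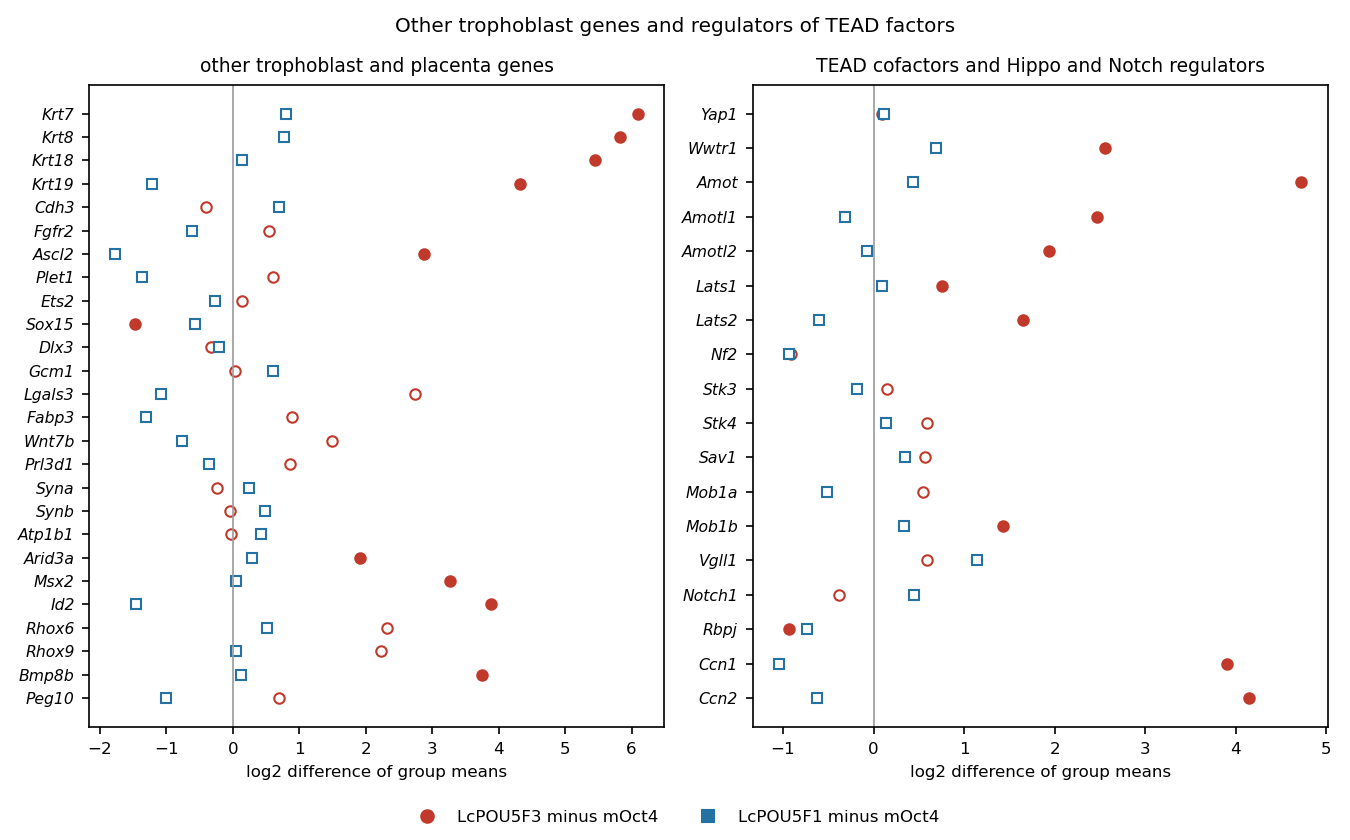
Log2 differences of 26 other trophoblast genes and 18 TEAD cofactors and Hippo and Notch regulators, with LcPOU5F3 minus mOct4 as red circles and LcPOU5F1 minus mOct4 as blue squares, filled where called. The keratins, Amot, Ccn1 and Ccn2 stand far above 0 in LcPOU5F3, and no square is filled.

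Some members also mark other tissues, as Gata3 and Tfap2a do in surface ectoderm and Cdx2 and Eomes in the embryo's mesoderm. Some markers of other cell types moved with them, and their part in the results was not tested. Over all genes 11.8% were called higher and 11.8% lower in LcPOU5F3 than in mOct4. None of the marker lists below was tested against these shares. Of 8 tested mesenchyme markers 4 were called higher in LcPOU5F3 than in mOct4, among them Tagln (5.64) and Timp3 (4.47). The other 4 were not called, namely the collagen genes Col1a1 (-0.80), Col1a2 (-0.46) and Col3a1 (0.72), and Vim (-0.31). Col1a1 was well above background on the mOct4 arrays alone. Summed levels of the 8 were 52.8 and 122 in LcPOU5F3, 15.5 and 35.3 in LcPOU5F1, and 25.1 and 29.7 in mOct4. Without Vim, the brightest of them, these sums were 42.0 and 87.4 in LcPOU5F3, 1.79 and 1.81 in LcPOU5F1, and 3.49 and 3.33 in mOct4. Of 7 tested surface ectoderm markers 4 were called higher, led by Perp (5.02), with sums of 106 and 180 in LcPOU5F3, 33.4 and 25.2 in LcPOU5F1, and 19.6 and 17.6 in mOct4. Perp made up 79.6% and 86.0% of the LcPOU5F3 sums, and without it the sums were 21.6 and 25.2 in LcPOU5F3, 18.8 and 16.4 in LcPOU5F1, and 15.5 and 14.6 in mOct4. Their defining factor Trp63 had group means of 2.10 in LcPOU5F3, 2.14 in LcPOU5F1 and 2.25 in mOct4. Of 5 tested mesoderm and caudal markers only Hoxc9 was called higher, at least 52.1-fold over mOct4, and T, Mixl1 and Mesp1 were not well above background on both arrays of any group. Of 9 tested primitive endoderm markers 2 were higher (Lamb1 and Dab2) and 1 lower (Amn), and Gata6, Sox7, Pdgfra and Foxa2 did not pass the background filter. Of 7 neural markers 1 was higher than in mOct4 (Pax3) and 3 lower (Foxd3, Tubb3 and Pax6), and of 5 blood and endothelial markers 1 was higher (Runx1) and 3 lower (Pecam1, Gata1 and Etv2). Between LcPOU5F1 and mOct4 the primitive endoderm marker Cubn was the only one of these markers called, at least 5.69-fold higher. Pluripotency factors ran the other way, with 9 of 12 lower in LcPOU5F3 than in mOct4 and none higher, and with sums of 151 and 90.3 in LcPOU5F3, 407 and 513 in LcPOU5F1, and 443 and 468 in mOct4. Nanog was among those lower (-2.04), but its second kept probe gave -0.09. Second probes of Nr5a2 and Tfcp2l1, also among them, gave -1.78 and -1.56.

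Genes with the most similar profile were found as those with the smallest root mean square difference in centred log2 signal over the 6 arrays. For Gata3 these were Gadd45g (0.26), Gsn and Fhl2, for Tfap2a Rab32 (0.17), Cd82 and Gadd45g, and for Gata2 Cited1 (0.24), Rab32 and Dysf. Cdx2 had Pdgfc (0.59), Gata3 (0.66) and Id2 (0.67), Esx1 had Sct (0.20), Cdc42ep1 and Igfbp6, and Hand1 had Mogat2 (0.40), Fstl3 and Tex101. Tead4 lay closest to Apaf1 (0.07), Slc35e4 and Rb1cc1, and Eomes to Pramel20 (0.16). Insrr and 1700001J03Rik came next for Eomes but were well above background on the mOct4 arrays alone, and Rab32, Fhl2, Mogat2, Tex101 and Cdc42ep1 were so on no LcPOU5F1 array, so their distances use signals at background. Within the set Gata3 and Tfap2a were most alike, at 0.36. That distance too uses signals at background, since Tfap2a was well above it on no LcPOU5F1 array. Cdx2, Gata2 and Gata3 were not well above background in LcPOU5F1 clone 5, so all distances of these members and of Tfap2a share the limit. These distances cover 6 arrays that share their groups, and they grow with the size of a gene's own changes, so they are a description.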

How the data were processed

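Per the file headers, the authors extracted spot intensity from each 1-colour array with Agilent Feature Extraction 11.0.1.1 (protocol GE1_1100_Jul11, array design on build mm9), and the processed intensity is linear and background-subtracted, and arrays were not scaled to each other. Intensity values of the deposited series matrix are identical apart from rounding. The file headers' columns also give the flags for signals well above background and outlying spots.

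From these values log2 intensity was taken and each array's 75th percentile subtracted. Control and outlying spots were dropped, spots of 1 probe averaged, and a probe kept if some group had it well above background on its 2 arrays. Probes were named by unversioned accession through a RefSeq table of GRCm38.p6, which named 27656 of 55681 probes, and the brightest kept probe stood for a gene (14595 genes). limma 3.58.1 (R 4.3.3) fitted the 3 group means over the 6 arrays, with 3 residual degrees of freedom (5.16 moderated), and an adjusted p (Benjamini-Hochberg) under 0.05 was a call. A gene unmeasured in a whole group has an "at least" bound, set against the higher of each array's floor and the probe's own signal. P-values set a difference of group means against the spread between clones, pooled over the 3 groups and moderated across genes. With 1 array per clone, variation between clones and between arrays cannot be told apart, and the number of arrays limits precision. The fit was run on simulated data with independent normal noise, only to check that it returned the size of differences put in. That check does not bear on the rate of false calls in these data.

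The members and lists were chosen with earlier results of these data known. All members are named, and of each list up to 4 called genes by smallest p in LcPOU5F3 minus mOct4. Wwtr1, Yap1, Trp63, and single genes that went against their list (Sox15, Cdh3, Rbpj, Notch1) were named after their values were seen. So were Col1a1, Col1a2, Col3a1, Vim, Nanog, Nr5a2 and Tfcp2l1. The normexp correction (offset 50) used median signals, because the planned mean signals were not among the columns used here.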

Additional observations from a re-analysis of the deposited data

How the results depend on the processing

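Counts of called members between LcPOU5F3 and mOct4 (7) were 4 with no filter, 3 of the 5 left to test with only probes well above background on all 6 arrays, 0 with the slide as a block, 0 with the replicate block, and 0 to 7 with each array left out. Of all genes (3438 called) these were 1541 with no filter, 2194 with only the 4 arrays compared, 41 with the slide block, 0 with the replicate block, 5330 at adjusted p under 0.1, and 35 to 5109 with an array left out. The clone numbers that LcPOU5F3 and mOct4 share pair nothing in the labels, and deviations of same-numbered clones correlated at -0.097 over genes.

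Between LcPOU5F1 and mOct4 (0 members, 5 genes) quantile normalization called 1 member and 106 genes, centring on the median 6 and 750, an intensity trend 1 and 29, the 4 arrays alone 3 and 537, and leaving out an array 0 to 3 and 0 to 537. The gene count was 14 with normexp, 0 with no filter, 0 with all 6 arrays required, 1 with a common floor, 0 with the slide block, 0 with every probe and 21 at 0.1. Of the genes, 2 were higher and 3 lower, against 7 and 99 with quantile normalization and 47 and 703 with centring on the median. Median centring also moved the median of all genes by -0.37 there and by 0.41 in LcPOU5F3 minus LcPOU5F1, and limma pooled the spread over genes with 1117 degrees of freedom in place of 5.16, so its calls rest on a nearly common spread. Quantile normalization moved the median of LcPOU5F3 minus LcPOU5F1 by 0.17 and the common floor by 0.11.

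Between LcPOU5F3 and LcPOU5F1 (7 members, 2987 genes) requiring all 6 arrays called 3 members, of 5 left to test, and leaving out an array 5 to 7. Genes numbered 959 with no filter, 498 with the 4 arrays, 498 with the slide block, 1970 with every probe, 4995 at 0.1 and 487 to 5920 with an array left out. They split into 1456 higher and 1531 lower, against 1773 higher and 1176 lower after quantile normalization, and 1852 higher and 502 lower after median centring.

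Differences near 0 changed sign. Hand1 in LcPOU5F3 minus mOct4 was 0.0542 with normexp, 0.0058 with quantile normalization, 0.0152 with median centring and -0.998 to 0.953 with an array left out, and Tfap2c was -0.134 to 0.233. Tead4 in LcPOU5F1 minus mOct4 was -0.0229 with quantile normalization, -0.37 with median centring, -0.00104 from the series matrix and -0.0857 to 0.0861 with an array left out. Eomes in LcPOU5F3 minus LcPOU5F1 was -0.0308 to 0.988. Of single-gene values, 273 of 321 under other settings and 124 of 162 with an array left out kept their direction and side of the threshold. Some of these fits are identical, since leaving out a clone of the group not compared equals the 4-array fit. Where 1 clone of a group was left, it was assumed to vary like the other groups. Except where stated, the cause was not tested.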
